A study of Mus musculus with 12 samples.

Results

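The 10 naive pluripotency transcription factors Klf2, Klf4, Klf5, Esrrb, Tfcp2l1, Tbx3, Nanog, Prdm14, Zfp42 and Nr5a2 were followed through every line of a comparison between mouse TPS cells and EPS cells. They were taken by name, through their gene identifiers in the GENCODE M21 annotation, and are 10 of the 55401 genes listed in the deposited tables, of which 32608 had a count. RNA-seq had been done on 3 lines of either cell type, with 2 technical replicates per line, and the line, with the counts of its 2 replicates added up, was the unit of comparison. TPS cells (totipotent potential stem cells) were grown on feeder cells in a medium that the labels call VCED. The study's methods describe the TPS medium as CPEC, with 4 compounds in N2B27 or RPMI basal medium on inactivated mouse embryonic fibroblasts. These are CD1530 (an agonist of RARγ), VPA (which inhibits histone deacetylases), EPZ004777 (which inhibits DOT1L) and an inhibitor of GSK3. EPS cells (extended pluripotent stem cells) were also grown on feeder cells, in LCDM medium, a pluripotency medium with LIF, a GSK3 inhibitor, dimethindene maleate and minocycline. The sources used here do not give the strain of the sequenced lines, nor whether a TPS line came from EPS cells, ES cells or an embryo, so that medium and origin cannot be told apart.

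Naive pluripotency is the state of the preimplantation epiblast and of mouse ES cells. Its transcription factors sit below the signals used in culture: LIF acts through JAK kinases and STAT3 on Klf4, Tfcp2l1 and Socs3, and inhibition of GSK3 stabilises β-catenin, which relieves the repression of Esrrb, Klf2, Nanog and Tfcp2l1 by TCF7L1. The KLF factors, ESRRB, TFCP2L1, TBX3 and NANOG bind many enhancers together with OCT4 and SOX2, and single members can often be lost because others cover for them. PRDM14 acts mainly as a repressor, with the corepressor CBFA2T2, on FGF receptor genes and DNA methyltransferase genes. Zfp42, also known as Rex1, is used more as a marker of the naive state than as a driver of it, and NR5A2 binds the same DNA motif as ESRRB.

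All 10 factors passed the filter on low counts and were tested. TPS lines had less RNA of Klf4, Tfcp2l1, Esrrb, Tbx3, Klf5 and Nr5a2 than EPS lines, from 6.31-fold lower for Klf4 to 1.61-fold lower for Nr5a2. Nanog, Prdm14, Klf2 and Zfp42 did not pass the threshold, and their lines overlapped between the groups. By edgeR's quasi-likelihood test with Benjamini-Hochberg adjustment over 17468 genes, 6 of the 10 factors passed an adjusted p of 0.05 as lower in TPS, against a background of 7.34% of all tested genes, and 0 were higher, against 14.4%. The count of higher factors was also 0 at an unadjusted p under 0.05, with DESeq2 and with limma-voom. The same 6 factors had every TPS line below every EPS line, where 19.1% of all tested genes did, and no factor had every TPS line above, where 23.6% did. The median log2 fold change of the 10 factors was -0.83, and that of all tested genes was -0.0038. With 3 lines against 3, an exact permutation test of a single gene cannot give a p below 0.1. The tests therefore rest on the fit across all genes. Their p-values set each group difference against a spread between these lines that is moderated across genes.

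**Figure D1:**
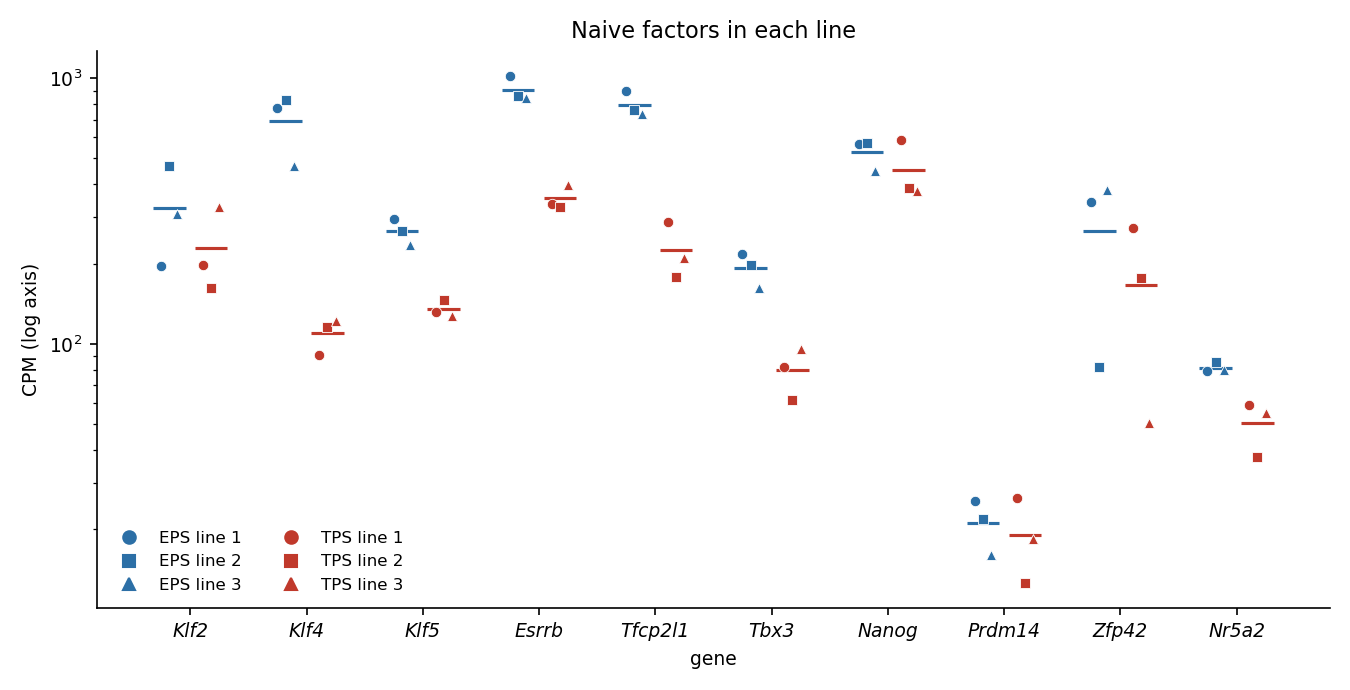
Expression of the 10 factors in CPM (counts scaled to the library total and its TMM factor, log axis) in each of 3 EPS lines (blue) and 3 TPS lines (red), with a bar at the mean of each group. The red points lie wholly below the blue points for Klf4, Klf5, Esrrb, Tfcp2l1, Tbx3 and Nr5a2, and the colours overlap for Klf2, Nanog, Prdm14 and Zfp42.

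**Figure D2:**
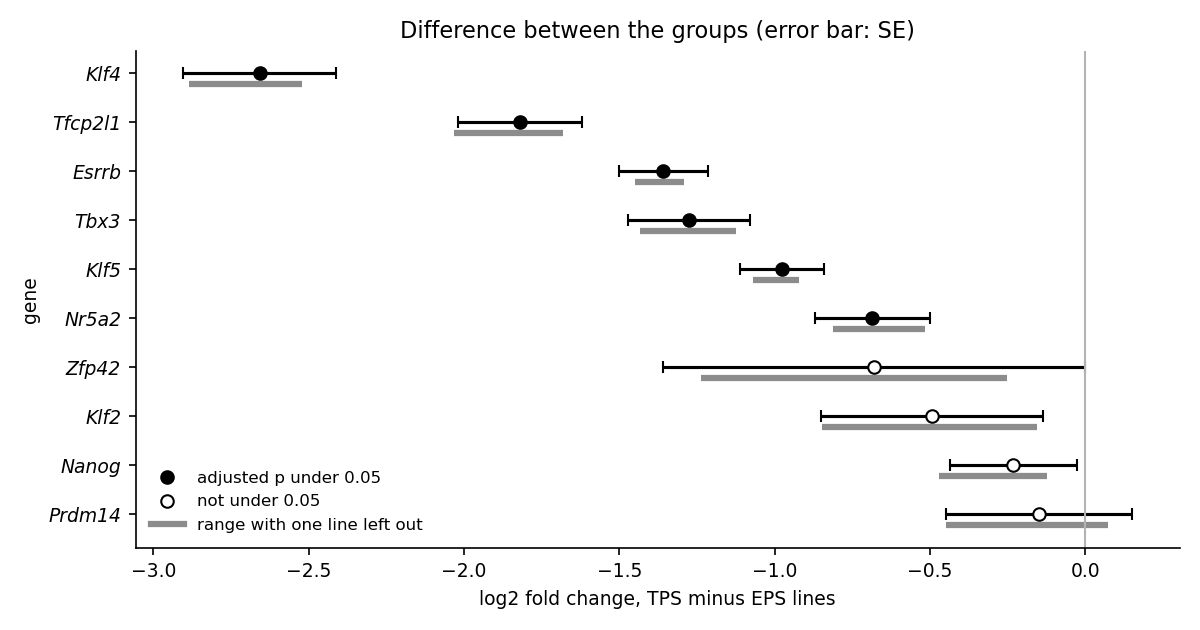
Log2 fold change of each factor, TPS minus EPS lines, with its standard error from edgeR's fit (error bars) and the range of the estimate when 1 of the 6 lines is left out (grey bars). Filled points mark the 6 factors with an adjusted p under 0.05, from Klf4 at -2.66 to Nr5a2 at -0.69.

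Counting error was small for these genes. Summed counts ranged from 29877215 to 38466294 per TPS line and from 33591638 to 35811697 per EPS line, and a factor had between 487 and 31273 counts in a line. Technical replicates of a line differed by at most 1.36-fold in any factor, which was Klf4 in EPS line 3. Between lines of one group, the ratio of highest to lowest was at most 2.37 for the factors other than Zfp42.

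Since 6 of the factors were lower together, the sequence before their start sites was searched for motifs of factors in the same network. RefSeq windows of build GRCm38.p6, from 250 bases before to 50 bases after a start site, were matched for 7 of the 10 factors, with 10 windows in all, since Esrrb, Nanog and Nr5a2 had 2 each. Klf5, Tbx3 and Prdm14 had no window in the table. The motifs were GGGNGTGG for KLF factors, AAGGTCA for ESRRB and NR5A2, TTCCNGGAA for STAT3, ATGCAAAT for OCT4 and CTTTGAA for TCF factors, read on both strands. The KLF motif was found in 5 of the 10 windows, which belong to 4 factors (Tfcp2l1, Nanog, Zfp42 and Nr5a2). It was in 5789 of all 32851 windows, which is 17.6%. The 2 Nanog windows overlap and hold the same KLF matches, so that these sites were counted in 2 of the 5 windows. The OCT4 motif was found once, before Zfp42, and in 1.74% of all windows. Only exact letters were counted, so that near variants were missed. An example is TTTTGCAT in the printed Nanog sequence, beside the ATTTGCAT counted before Zfp42. The ESRRB and NR5A2, STAT3 and TCF motifs were in none of the 10 windows and in 4.72%, 1.15% and 5.14% of all windows. No match of one motif overlapped a match of another. The 250 bases before the start site are printed for the 4 factors with a KLF match, to show where it lies, and for Klf4, the factor with the largest difference between the groups, whose window held no match. Capitals mark the matches, and each sequence reads 5′ to 3′ toward its gene.

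Klf4 (chr4:55532476-55532725, minus strand): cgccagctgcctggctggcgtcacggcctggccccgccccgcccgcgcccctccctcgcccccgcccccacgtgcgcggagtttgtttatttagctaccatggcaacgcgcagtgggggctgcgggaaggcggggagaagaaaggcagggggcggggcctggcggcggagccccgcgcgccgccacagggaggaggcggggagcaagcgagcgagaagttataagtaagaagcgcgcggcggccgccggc

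Tfcp2l1 (chr1:118627695-118627944, plus strand): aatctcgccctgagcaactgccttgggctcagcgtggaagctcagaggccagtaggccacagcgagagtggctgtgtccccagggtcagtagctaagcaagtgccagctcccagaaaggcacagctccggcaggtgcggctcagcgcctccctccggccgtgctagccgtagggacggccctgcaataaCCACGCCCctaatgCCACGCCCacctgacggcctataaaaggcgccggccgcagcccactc

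Nanog (chr6:122707239-122707488, plus strand): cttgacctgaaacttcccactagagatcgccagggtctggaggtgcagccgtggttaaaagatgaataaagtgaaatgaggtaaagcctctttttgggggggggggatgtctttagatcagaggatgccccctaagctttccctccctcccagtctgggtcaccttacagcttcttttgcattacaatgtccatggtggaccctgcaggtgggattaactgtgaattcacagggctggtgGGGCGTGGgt

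Zfp42 (chr8:43307010-43307259, minus strand): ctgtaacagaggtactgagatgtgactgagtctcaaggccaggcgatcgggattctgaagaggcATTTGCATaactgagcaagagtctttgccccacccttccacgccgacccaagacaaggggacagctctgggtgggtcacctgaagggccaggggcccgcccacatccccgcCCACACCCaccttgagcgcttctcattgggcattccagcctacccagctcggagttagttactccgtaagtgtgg

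Nr5a2 (chr1:136953631-136953880, minus strand): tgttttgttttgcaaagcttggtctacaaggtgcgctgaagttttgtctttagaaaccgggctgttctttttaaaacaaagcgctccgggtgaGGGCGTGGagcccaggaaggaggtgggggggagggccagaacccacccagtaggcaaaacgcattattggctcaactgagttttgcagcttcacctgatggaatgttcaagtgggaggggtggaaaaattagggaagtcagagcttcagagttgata

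The Tfcp2l1 window held 2 KLF matches close together, at bases -61 to -54 and -47 to -40 from the start site, both on the opposite strand. The Zfp42 window had a KLF match at -75 to -68 and the OCT4 match at -186 to -179. Factors with a KLF match before the start included both called genes (Tfcp2l1 and Nr5a2) and genes that were not called (Nanog and Zfp42). A match of letters is not a measured binding site, and lack of a match does not show lack of a site. Binding was not measured in these samples.

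The 3 KLF factors bind the same GC-rich motif and share targets. Klf4 and Klf5 were called lower in TPS lines and Klf2 was not called. A difference between their fold changes was not tested. Klf4 (ENSMUSG00000003032.8, chromosome 4 of GRCm38, 55527143 to 55532466, minus strand) encodes the KLF factor that responds most directly to LIF and STAT3. Its level was 90.7, 116 and 122 CPM in TPS lines 1, 2 and 3 and 775, 831 and 468 CPM in EPS lines 1, 2 and 3. The groups were far apart, and the lowest EPS line was line 3. TPS minus EPS, this was -2.66 on the log2 scale (standard error 0.246, edgeR adjusted p = 0.00149), the largest fold change of the 10.

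Klf5 (chromosome 14, 99298691 to 99315036, plus strand), which also acts in the trophectoderm of the early embryo, had 132, 146 and 127 CPM in TPS lines 1 to 3 and 295, 267 and 236 CPM in EPS lines 1 to 3. The TPS lines lay close together and all below the EPS lines. The difference was -0.98 on the log2 scale (standard error 0.136, edgeR adjusted p = 0.00438). Its pseudogene copy Gm6007, 90.02% identical over 24.02% of the longest transcript, had 0 counts in every line.

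Klf2 (chromosome 8, 72319033 to 72321656, plus strand), a factor under MEK and ERK control in ES cells, had 198, 163 and 329 CPM in TPS lines 1 to 3 and 197, 467 and 308 CPM in EPS lines 1 to 3. TPS line 3 was above EPS lines 1 and 3, so the groups overlapped. For Klf2, the estimate of -0.49 on the log2 scale did not pass (standard error 0.357, edgeR adjusted p = 0.355). Lines differed by up to 2.02-fold within TPS and 2.37-fold within EPS, and the estimate was -0.85 without TPS line 3, -0.77 without EPS line 1, -0.30 without TPS line 2 and -0.16 without EPS line 2, and passed in none of these fits.

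The make-up of the KLF RNA differed between the groups. On a per-length scale (RPKM, CPM per kilobase of merged exons), Klf4 made up 60.9%, 47.3% and 42.0% of the summed Klf2, Klf4 and Klf5 RNA in EPS lines 1 to 3, and 18.3%, 24.7% and 16.5% in TPS lines 1 to 3. Klf2 made up 66.1%, 57.1% and 73.5% in TPS lines 1 to 3, against 25.5%, 43.8% and 45.6% in EPS lines 1 to 3. The summed level was 162.6, 154 and 242 RPKM in TPS lines and 417, 576 and 365 RPKM in EPS lines. Every TPS line thus had a smaller total and a larger Klf2 share than any EPS line.

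**Figure D3:**
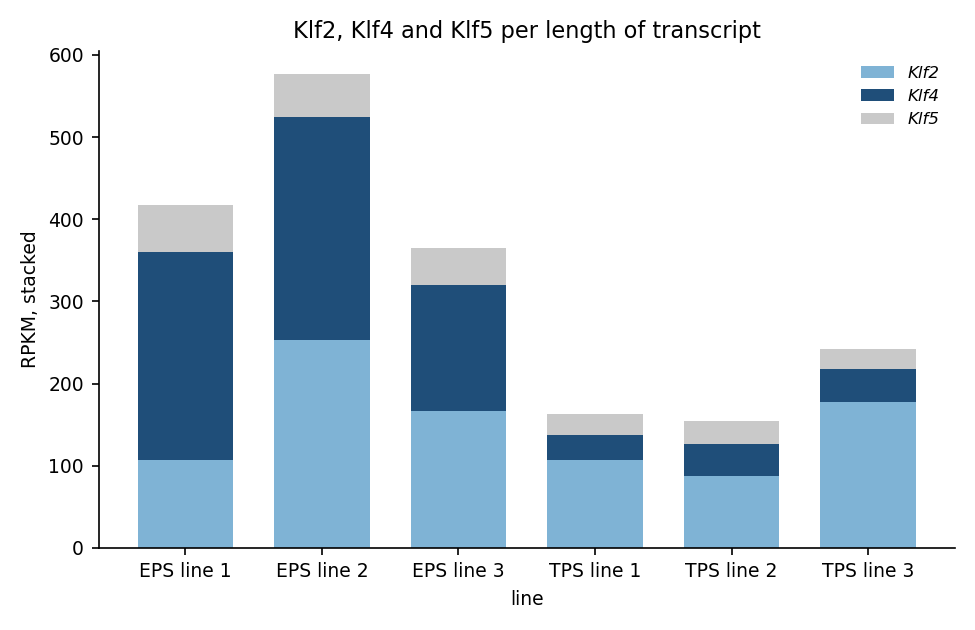
Stacked levels of Klf2, Klf4 and Klf5 in RPKM for each line, on an axis from 0. The dark Klf4 segment falls from 153 to 272 RPKM in EPS lines to 29.7 to 39.9 RPKM in TPS lines, and Klf2 is the tallest segment in each of the 3 TPS lines.

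Tfcp2l1 and Esrrb, both able to sustain naive self-renewal when overexpressed, had the next largest fold changes. Tfcp2l1 (chromosome 1, 118627945 to 118685168, plus strand), a CP2-family factor, had 287, 179 and 211 CPM in TPS lines 1 to 3 and 898, 760 and 734 CPM in EPS lines 1 to 3. No TPS line came near an EPS line. Its log2 fold change was -1.82 (standard error 0.2, edgeR adjusted p = 0.00239). The annotation has 3 small genes inside the Tfcp2l1 locus, none with more than 3 counts in a line.

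Esrrb (chromosome 12, 86361117 to 86521628, plus strand) encodes an orphan nuclear receptor that works with NANOG. It had 337, 329 and 395 CPM in TPS lines 1 to 3 and 1021, 858 and 845 CPM in EPS lines 1 to 3, with little spread inside each group. The log2 difference was -1.36 (standard error 0.143, edgeR adjusted p = 0.00219). Nr5a2 (chromosome 1, 136842571 to 136960448, minus strand), also an orphan nuclear receptor, is known for activating Pou5f1 and for its role in zygotic genome activation. It had 58.8, 37.5 and 55.0 CPM in TPS lines 1 to 3 and 78.7, 85.1 and 79.5 CPM in EPS lines 1 to 3. The EPS lines were almost level and the TPS lines all lay below them. At -0.69 on the log2 scale (standard error 0.184, edgeR adjusted p = 0.0353), it had the largest adjusted p of the 6 called factors. Nr5a2 kept its call without TPS line 1 and lost it without each other line, with edgeR adjusted p-values of 0.0566 without TPS line 2, 0.072 without TPS line 3, 0.0647 without EPS line 1, 0.0834 without EPS line 2 and 0.0662 without EPS line 3. It was also lost with the line number as a replicate block (edgeR adjusted p = 0.0663).

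Tbx3 (chromosome 5, 119670669 to 119684724, plus strand) encodes a T-box factor that supports self-renewal downstream of PI3K and can promote extraembryonic endoderm. It had 81.8, 61.5 and 95.9 CPM in TPS lines 1 to 3 and 219, 198 and 162 CPM in EPS lines 1 to 3. The groups did not overlap. The log2 difference was -1.27 (standard error 0.197, edgeR adjusted p = 0.00622). An antisense gene, Tbx3os1, overlaps it and had between 11 and 23 counts in a line, and whether counting used strand is not given in the sources used here.

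Nanog (chromosome 6, 122707489 to 122714633, plus strand), the homeodomain factor that can hold ES cells undifferentiated without LIF when overexpressed, had 586, 387 and 377 CPM in TPS lines 1 to 3 and 568, 572 and 447 CPM in EPS lines 1 to 3. TPS line 1 was above all EPS lines, and TPS lines 2 and 3 were below them. Nanog thus had a log2 difference of -0.23 that did not pass (standard error 0.204, edgeR adjusted p = 0.448). It was -0.47 without TPS line 1, -0.35 without EPS line 3, -0.14 without TPS line 2 and -0.12 without TPS line 3, and passed in none of these fits. The copy Nanog-ps1, 97.55% identical over 11.08% of the longest transcript, had at most 4 counts in a line.

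Prdm14 (chromosome 1, 13113457 to 13127163, minus strand) was the least abundant of the 10, at 26.3, 12.6 and 18.5 CPM in TPS lines 1 to 3 and 25.7, 21.9 and 16.1 CPM in EPS lines 1 to 3. The range of the TPS lines enclosed that of the EPS lines. Its log2 fold change was -0.15 (standard error 0.3, edgeR adjusted p = 0.755), and it was -0.45 without TPS line 1, -0.33 without EPS line 3, -0.014 without EPS line 1, 0.07 without TPS line 2 and 0.0029 with scaling by library size alone.

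Zfp42 (chromosome 8, 43295063 to 43306980, minus strand), a zinc finger gene that arose from a copy of Yy1, varied more between lines than between groups. It had 274, 177 and 50.4 CPM in TPS lines 1 to 3 and 342, 81.8 and 378 CPM in EPS lines 1 to 3. TPS line 3 and EPS line 2 were low, and the other lines of both groups were between 177 and 378 CPM. The spread was 5.43-fold within TPS lines and 4.63-fold within EPS lines, whereas technical replicates of a line differed by at most 1.18-fold. Between the groups, the log2 difference was -0.68 (standard error 0.679, edgeR adjusted p = 0.507). It was -1.24 without TPS line 1, -1.14 without EPS line 2, -0.36 without EPS line 3 and -0.25 without TPS line 3, and passed in none of these fits. The processed pseudogene Zfp42-ps1 on chromosome 15, 98.38% identical to Zfp42 over 26.95% of the longest transcript, had 571 and 381 counts in TPS lines 1 and 2 and 615 and 742 counts in EPS lines 1 and 3. It had 0 counts in TPS line 3 and 1 count in EPS line 2, the lines in which Zfp42 itself was low. Reads of Zfp42 and of this copy could have been exchanged by the counting, which the sources used here do not describe.

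Compared per length, the order of the factors differed between the groups. In EPS lines, Nanog had the highest mean level (236 ± 31.6 RPKM, SD, n = 3 lines), followed by Klf4 (227 ± 64.0), Klf2 (175 ± 73.4), Esrrb (150 ± 16.2), Zfp42 (142 ± 86.0) and Tfcp2l1 (84.5 ± 9.34). Neighbours among these 6 overlapped between lines and did not differ beyond their spread. Below them came Klf5 (51.1 ± 5.70), Tbx3 (29.1 ± 4.31), Nr5a2 (13.8 ± 0.594) and Prdm14 (8.27 ± 1.89), each of which lay below the factor before it in all 3 lines.

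In TPS lines, Nanog was again highest (201 ± 52.6 RPKM, SD, n = 3 lines), followed by Klf2 (125 ± 47.4), Zfp42 (88.7 ± 59.5) and Esrrb (58.5 ± 5.98), with overlap between neighbours. Klf4 (35.9 ± 5.41) came next, below Esrrb and above Klf5 (26.0 ± 1.89) in all lines. Klf5 and Tfcp2l1 (23.9 ± 5.91) overlapped, and Tbx3 (12.0 ± 2.61) lay below Tfcp2l1. Nr5a2 (8.55 ± 1.92) overlapped both Tbx3 and Prdm14 (7.46 ± 2.67). By mean level, Klf4 moved from rank 2 in EPS lines to rank 5 in TPS lines and Tfcp2l1 from rank 6 to rank 7, while Zfp42 moved from rank 5 to rank 3, Klf2 from rank 3 to rank 2 and Klf5 from rank 7 to rank 6. The other 5 kept their rank. The summed level of the 10 factors was 515 to 688 RPKM in TPS lines and 1028 to 1173 RPKM in EPS lines.

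Both cell types were grown on feeders, and fibroblast genes moved with the groups. Of 16 such genes, edgeR's test called 11 higher in TPS, against 14.4% of all tested genes, and 0 lower (0 lower also at an unadjusted p under 0.05, with DESeq2 and with limma-voom), and their summed level was 3488 to 6339 CPM in TPS lines and 324 to 1389 CPM in EPS. In neither group was any of the 16 at 0 in every line. The defining marker Col1a1 had 1386 to 2363 CPM in TPS and 79.4 to 433 CPM in EPS lines. The count of 11 was 3 without TPS line 1, 5 without TPS line 3 and 3 without EPS line 2. TPS line 1, with the highest fibroblast sum of all lines, also had the highest Nanog, Prdm14, Zfp42, Tfcp2l1 and Nr5a2 of the TPS lines, and the lowest Klf4. The part of fibroblast RNA in the differences of the naive factors was not tested. In bulk RNA, fewer cells of a type and less RNA per cell cannot be told apart.

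Ratios between genes within a line do not depend on the scaling between lines. Relative to Nanog in the same line, Klf4 was 0.155, 0.300 and 0.322 in TPS lines 1 to 3 and 1.36, 1.45 and 1.05 in EPS lines 1 to 3. Tfcp2l1 relative to Nanog was 0.490, 0.461 and 0.560 in TPS lines and 1.58, 1.33 and 1.64 in EPS lines. Of the other 9 factors, 5 had a ratio to Nanog that was lower in every TPS line than in every EPS line (Klf4, Klf5, Esrrb, Tfcp2l1 and Tbx3), as did 5.03% of all tested genes. The ratio of Nr5a2 to Nanog overlapped between the groups. Relative to Sox2, which was itself lower in every TPS line, the same 5 factors were lower in every TPS line, as were 3.07% of all tested genes, and the other 5 overlapped.

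The labels of the cells were set beside markers of other cell types. A list of 8 genes of the 2-cell stage, Zscan4c among them, had a summed level of 178 to 228 CPM in TPS lines. In EPS lines the sum was 0.0589 to 0.142 CPM, and none of the 8 had more than 3 counts in an EPS line. They passed the filter on low counts through the TPS lines, so that they could only be called higher. All 8 were, against 14.4% of all tested genes, and these calls are therefore no test of the labels. Of 9 tested trophectoderm genes, 2 were higher (Gata3 and Cdx2) and 1 lower (Tead4), against 14.4% and 7.34% of all. Gata3 and Cdx2 had at most 12 and 19 counts in an EPS line. Both passed the filter through the TPS lines, so that only a higher call was open to them. The summed level of the 10 trophectoderm genes was 163 to 635 CPM in TPS lines and 180 to 282 CPM in EPS lines. TPS line 2 had the 635 CPM, with Krt8 at 243 CPM and 4.85 and 32.8 CPM in lines 1 and 3, and it was the TPS line with the least Klf2, Esrrb, Tfcp2l1, Tbx3, Nr5a2 and Prdm14 and with the most Klf5. Gata3 lost its call without TPS line 1, TPS line 2 or EPS line 2, and Cdx2 without TPS line 2, TPS line 3, EPS line 1 or EPS line 2. Without TPS line 1, Krt8, Krt18 and Hand1 were called higher, without TPS line 3 or EPS line 2 Elf5 was, and without TPS line 2 Gata2 was called lower, beside Tead4. Without TPS line 2, the log2 fold changes of Tfcp2l1 and Tbx3 were -1.68 and -1.12, and both were called, as was Esrrb at -1.31. Nr5a2, at -0.52, lost its call (edgeR adjusted p = 0.0566), and Klf2 and Prdm14 were not called with or without that line. Of 8 primitive endoderm genes, 4 were higher and 1 lower (against the same 14.4% and 7.34%), with a sum of 106 to 142 CPM in TPS lines and 138 to 194 CPM in EPS lines. The lower gene was Lama1 (log2 fold change -1.83, edgeR adjusted p = 0.00457), called whichever line was left out. Pdgfra, a higher gene named after its values were seen, is also in the fibroblast list. Without EPS line 1 or 2 the higher calls were those of Gata6 and Sox17. How the trophectoderm and endoderm genes bear on the naive factors was not tested.

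Of the 2 core factors, 1 was called lower, where 7.34% of all tested genes were. Pou5f1, which encodes OCT4, had 253, 261 and 338 CPM in TPS lines 1 to 3 and 689, 437 and 539 CPM in EPS lines 1 to 3 (log2 fold change -0.97, edgeR adjusted p = 0.0158). It lost its call without TPS line 1, and Sox2 gained one without EPS line 3. Sox2 had 397, 343 and 428 CPM in TPS lines 1 to 3 and 580, 607 and 470 CPM in EPS lines 1 to 3 (log2 fold change -0.51, edgeR adjusted p = 0.0507). Both genes were called lower with limma-voom, with RLE (relative log expression) factors in place of TMM, without a filter on low counts, with the 12 libraries as separate samples and with technical replicate 1 alone, and 0 were at an adjusted p under 0.01. Both had all TPS lines below all EPS lines, as did 19.1% of all tested genes.

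Upstream of the factors, the genes of the LIF and STAT3 pathway went in both directions. Of 10 such genes, 3 were lower in TPS (7.34% of all tested genes were) and 3 higher (14.4% of all were), and the median log2 fold change was 0.11. Stat3 itself had 111, 106 and 98.1 CPM in TPS lines 1 to 3 and 181, 168 and 144 CPM in EPS lines 1 to 3 (log2 fold change -0.65, edgeR adjusted p = 0.0153), and the receptor gene Lifr had a log2 fold change of -0.80 (edgeR adjusted p = 0.01). Socs3, a direct target of STAT3 that feeds back on JAK kinases, had 81.1, 130 and 56.8 CPM in TPS lines 1 to 3 and 211, 342 and 162 CPM in EPS lines 1 to 3 (log2 fold change -1.42, edgeR adjusted p = 0.0305). The kinase gene Jak2 was higher in TPS lines (log2 fold change 1.06, edgeR adjusted p = 0.0182), as were Lif and Jak1 (log2 fold changes of 1.12 and 0.49), which are named after their values were seen. Lifr was called lower whichever line was left out. Stat3 lost its call without TPS line 3, and Socs3 without TPS line 1, TPS line 3, EPS line 1 or EPS line 2. Jak2 kept its call without TPS line 3 or EPS line 3 and lost it without any other line, Lif kept it without TPS line 2 alone, and Jak1 lost it in each of these 6 fits. Fibroblasts also express Jak2 and Lif, and their part in these values was not tested.

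**Figure D4:**
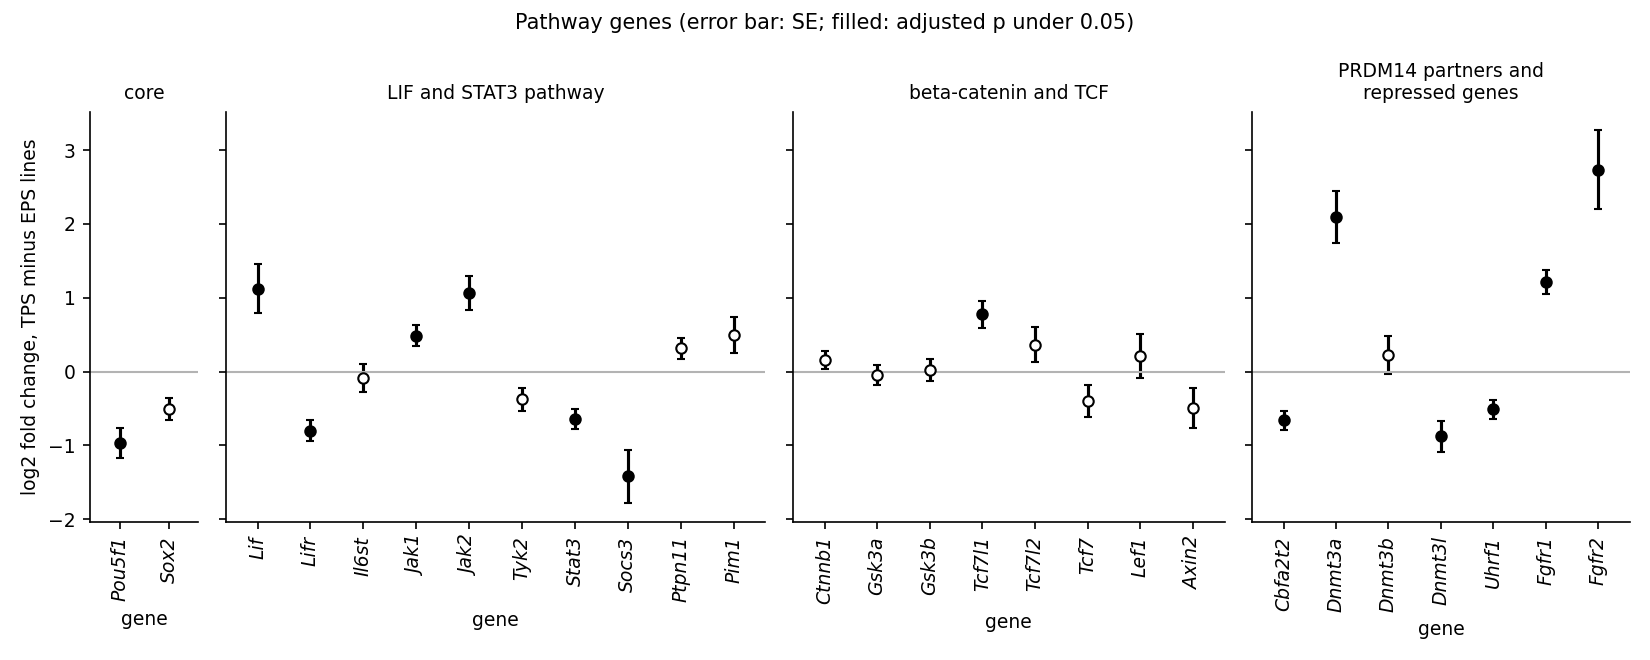
Log2 fold changes, TPS minus EPS lines, of the core factors and of 3 lists of genes upstream of or regulated by the naive factors, with standard errors from edgeR's fit. Filled points have an adjusted p under 0.05: in the LIF and STAT3 list 3 lie above 0 and 3 below, and in the PRDM14 list Dnmt3a, Fgfr1 and Fgfr2 lie above and Cbfa2t2, Dnmt3l and Uhrf1 below.

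Of 8 genes of β-catenin and TCF signalling, 1 was called higher in TPS and 0 lower, which is no larger a share than the 14.4% higher among all tested genes (0 were lower also at an unadjusted p under 0.05, with DESeq2 and with limma-voom). The gene called was Tcf7l1, a repressor of several naive factors, at 84.5, 64.3 and 68.7 CPM in TPS lines 1 to 3 and 33.3, 49.0 and 44.8 CPM in EPS lines 1 to 3 (log2 fold change 0.77, edgeR adjusted p = 0.0255). The call was lost without TPS line 1, TPS line 3, EPS line 1 or EPS line 3. Axin2, a common readout of β-catenin activity named here after its values were seen, had a log2 fold change of -0.49 (edgeR adjusted p = 0.22). This ran from -0.22 without EPS line 3 to -0.67 without TPS line 3, and Axin2 was called in no fit that left out 1 line. Among 10 genes that act in the exit from naive pluripotency, Tcf7l1 was the 1 called higher, again near the 14.4% of all tested genes, and 3 were lower, against 7.34%. These were Hes1, a Notch target, with a log2 fold change of -1.41, Tfe3, which keeps Esrrb on, with -1.08, and Fnip1, the partner of folliculin that keeps TFE3 out of the nucleus, with -0.82 (edgeR adjusted p = 0.0118, 0.0171 and 0.011). Tfe3 lost its call without TPS line 1.

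Of 7 genes listed as partners or repressed targets of PRDM14, 3 were higher in TPS, against 14.4% of all tested genes, and 3 lower, against 7.34%. Fgfr1, an FGF receptor gene, had 199, 158 and 198 CPM in TPS lines 1 to 3 and 66.3, 88.2 and 84.8 CPM in EPS lines 1 to 3 (log2 fold change 1.21, edgeR adjusted p = 0.00409). Fgfr2 had 14.2, 8.71 and 9.98 CPM in TPS lines 1 to 3 and 0.751, 3.03 and 1.14 CPM in EPS lines 1 to 3 (log2 fold change 2.73, edgeR adjusted p = 0.0128). Dnmt3a, a de novo DNA methyltransferase gene, had 237, 217 and 513 CPM in TPS lines 1 to 3 and 71.5, 62.0 and 93.5 CPM in EPS lines 1 to 3 (log2 fold change 2.09, edgeR adjusted p = 0.00785). Each of these 3 genes was called higher whichever line was left out, and the largest edgeR adjusted p was 0.0174 for Fgfr1, 0.0402 for Fgfr2 and 0.0367 for Dnmt3a. The 3 genes that were lower were the corepressor gene Cbfa2t2 (log2 fold change -0.66, edgeR adjusted p = 0.0132), Dnmt3l (-0.88, edgeR adjusted p = 0.0246) and Uhrf1 (-0.51, edgeR adjusted p = 0.027). Dnmt3l and Uhrf1 are named after their values were seen, as is Dnmt3b, which was not called (log2 fold change 0.22, edgeR adjusted p = 0.572). Cbfa2t2 lost its call without TPS line 3, Dnmt3l without TPS line 1, TPS line 3 or EPS line 1, and Uhrf1 without TPS line 1, TPS line 3, EPS line 2 or EPS line 3. Fibroblasts also express Fgfr1 and Dnmt3a, and their part here was likewise not tested.

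Genes related to the naive factors by sequence were compared next. Of 24 paralogues, 20 were tested, 4 were lower (against 7.34% of all tested genes) and 2 higher in TPS (against 14.4%), and the median log2 fold change was -0.15. With the 12 libraries as separate samples, 7 were lower and 5 higher, where 3610 and 4067 of 15512 tested genes were. Klf15, a metabolic regulator, had 9.99, 7.51 and 9.72 CPM in TPS lines 1 to 3 and 32.1, 36.5 and 22.7 CPM in EPS lines 1 to 3 (log2 fold change -1.75, edgeR adjusted p = 0.00398). Klf9 (log2 fold change -0.89, edgeR adjusted p = 0.00921) and Klf13 (-0.63, edgeR adjusted p = 0.0167) were also lower, as was Klf3 (-0.66, edgeR adjusted p = 0.0391), which is named after its values were seen. Higher were Tbx4, a limb regulator (log2 fold change 2.24, edgeR adjusted p = 0.0225), and Klf17, a KLF gene of the early mouse embryo named after its values were seen, at 2.50, 3.89 and 3.27 CPM in TPS lines 1 to 3 and 1.08, 1.00 and 1.68 CPM in EPS lines 1 to 3 (log2 fold change 1.36, edgeR adjusted p = 0.0359). Klf15 and Klf9 were called lower whichever line was left out, and Klf13 lost its call without TPS line 2 or 3. Klf3 kept its call without TPS line 3 or EPS line 3 and lost it without any other line. Klf8 was called lower without TPS line 1, and Klf10 without EPS line 3. Tbx4 lost its call without TPS line 3, EPS line 1 or EPS line 2, and Klf17 kept its call without EPS line 3 alone. The relative of Esrrb named Esrra had 40.1 to 42.2 CPM in TPS lines and 23.1 to 33.3 CPM in EPS lines (log2 fold change 0.54, edgeR adjusted p = 0.0585, and 0.0496 without EPS line 1), where Esrrb had 329 to 395 and 845 to 1021 CPM.

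Of 12 other genes of the naive state, 4 were lower by edgeR's test, against 7.34% of all tested genes, and 0 higher, against 14.4%. The higher count was 0 also at an unadjusted p under 0.05, with DESeq2 and with limma-voom, and 1 without TPS line 1 (Gbx2). It was 2 with the 12 libraries as separate samples, where 4067 of 15512 tested genes were higher. Without TPS line 3, Nr0b1 was called lower. The median log2 fold change of the 12 genes was 0.03. Tdh, an enzyme of threonine breakdown in ES cells (log2 fold change -1.34), Gdf3, a TGF-β family ligand (-1.22), Dppa5a (-1.03) and Tcl1, a cofactor of AKT kinases (-0.94), were lower, with edgeR adjusted p-values of 0.0062, 0.00368, 0.0108 and 0.044. The first 3 were called whichever line was left out, whereas Tcl1 kept its call without TPS line 1 alone, with adjusted p-values from 0.0651 to 0.117 in the other 5 of these fits. Of 8 genes of the formative and primed states that follow the naive state, 3 were higher, against 14.4% of all tested genes, and 2 lower, against 7.34%, and the median log2 fold change was 0.10. Sox3 had 11.2, 16.7 and 19.0 CPM in TPS lines 1 to 3 and 3.82, 3.27 and 3.56 CPM in EPS lines 1 to 3 (log2 fold change 2.14, edgeR adjusted p = 0.00343). Pou3f1 was higher (log2 fold change 1.89, edgeR adjusted p = 0.0346), and Foxd3 and Lin28a were lower (-1.77 and -0.92, edgeR adjusted p = 0.0273 and 0.0372). Sox3 was called higher whichever line was left out. Pou3f1 kept its call without TPS line 1 alone, Lin28a without EPS line 2 alone, and Foxd3 without TPS line 3 or EPS line 3, and the third higher gene, Fgf5, named after its values were seen, without TPS line 2 alone.

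The 3 tested genes outside the list with the profile nearest to the mean of the 10 factors, by Euclidean distance of centred log2(CPM + 1) over the 6 lines, were Pnldc1, Gm12688 and Rims2, at distances of 0.176, 0.202 and 0.206. Pnldc1, an enzyme that trims small RNAs, had 7.74, 6.56 and 7.05 CPM in TPS lines 1 to 3 and 16.5, 15.3 and 15.8 CPM in EPS lines 1 to 3. Rims2, a gene of synaptic vesicle release, had 251 to 361 counts in a TPS line and 498 to 573 in an EPS line. Gm12688 had 11 to 33 counts in a TPS line and 56 to 62 in an EPS line.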

How the data were processed

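Poly(A) RNA of 3 TPS and 3 EPS lines was sequenced as paired-end reads in 12 libraries. The submitters' processing notes name fastp 0.19.7 and STAR 2.7.3a, with build mm10 (GRCm38.p6 in the study's methods). The authors deposited raw counts per gene, whereas the counting tool, annotation release, use of strand and treatment of reads with several matches are not given in the sources used here. Groups and line numbers came from the labels, and the 10 factors and all lists were chosen with earlier results of these data known.

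Of 55401 genes, 55141 matched GENCODE M21. Library totals ranged from 13676051 to 21821707 counts, and intervals from counting error alone would be narrow. Technical replicates differed by more than sampling noise (chi-square per degree of freedom 2.68 to 24.3), and no library was listed again. Counts of a line were summed and tested with edgeR 4.0.16 (R 4.3.3; TMM factors, filterByExpr with 10 counts in enough lines and 15 in total, quasi-likelihood test), which left 17468 genes. A gene nearly absent from the EPS lines passed this filter through the TPS lines alone, and could then be called only higher. CPM scales counts by the total multiplied with the TMM factor, and RPKM is CPM per kilobase of merged exons. Standard errors are the log2 fold change divided by the square root of F. Copies were searched with blastn 2.17.0 (at least 90% identity over 10% of the transcript).

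Named genes were the 10 factors, Pou5f1 and Sox2, up to 4 called genes of smallest adjusted p per list (with none called, the 2 of highest count), the 3 nearest profiles and paralogues set beside a factor. Alternatives were DESeq2 1.42.0, limma-voom (limma 3.58.1), other factors, filters and replicates, a replicate block, a threshold of 0.01 and leaving out each line. Figures were drawn with matplotlib 3.10.9.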

Additional observations from a re-analysis of the deposited data

How the results depend on the processing

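The 6 lower calls among the 10 factors were 5 or 6 in each of 18 alternatives, and the higher calls were 0 in each of them. Klf4, Klf5, Esrrb, Tfcp2l1 and Tbx3 were called in all 18, and Nr5a2 in 9 of them, with adjusted p-values between 0.0006 and 0.0834. Besides the fits named in the report, Nr5a2 lost its call with library size alone (adjusted p = 0.0744), with technical replicate 1 alone (0.0526) and at a threshold of 0.01. With the line number as a replicate block, 5 factors were called lower, the log2 fold change of Nr5a2 was -0.71, and 721 genes of all tested were lower and 1714 higher, against 1282 and 2509 without it. Deviations of same-numbered lines had correlations of 0.02, -0.12 and 0.04 across genes, and those of unlike number from -0.24 to 0.23. With 3 lines per group, these values cannot show whether lines of the same number are related. The numbers were not used as pairs in the main fit. Prdm14 changed sign with library size alone, at 0.0029, and without TPS line 2, at 0.073, and its log2 fold change ran from -0.45 to 0.073 when 1 line was left out. By library size alone the median log2 fold change of all genes was 0.14, and the higher share of called genes was 80.0%, where TMM factors gave 66.2%. It was 72.6% with upper quartile factors and 53.0% with the 12 libraries as separate samples, which called 4067 genes higher and 3610 lower. Relative to that shift of 0.14, no factor was higher. Counts in the context lists are small and several changed by more than 1.5 times when 1 line was left out. The cause was not tested.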
